A study of Mus musculus with 6 samples.

Results

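Dct and 9 further genes of pigment cells (Tyr, Tyrp1, Pmel, Mlana, Slc45a2, Oca2, Gpnmb, Mitf and Kit) were followed in the organ of Corti of mice with and without pejvakin, the protein made by Pjvk. The genes were taken by symbol from the platform annotation of the array, which gave 11 probe sets for 10 of the 19938 named genes, or 11 of the 35557 probe sets in the table. Dct heads the list because it was chosen by its own measured difference between the genotypes, and the others were added for their place in melanin synthesis, the melanosome or the melanocyte with results of these data already known. The genotype values of all 10 genes are therefore a description and not a test.

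The samples were 3 preparations of total RNA from Pjvk-/- mice, called knockout, and 3 from Pjvk+/+ mice, called wild-type, all at postnatal day 15. All animals shared the strain background C57BL/6J-129/Sv. The tissue was the dissected organ of Corti, the strip of sensory hair cells and the cells around them that turns sound into nerve signals. Each preparation was read on 1 Affymetrix mouse gene ST array. The labels do not say how Pjvk was inactivated, how many animals or which sexes went into a preparation, or whether the preparations came from separate animals, so the spread between arrays may be technical.

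Melanocytes make melanin inside an organelle of their own, the melanosome. Tyrosinase (Tyr) oxidises tyrosine to dopaquinone, Dct isomerises dopachrome on the way to eumelanin, and Tyrp1 stabilises tyrosinase and takes part in the last steps. In the cochlea, cells of melanocyte origin form the intermediate layer of the stria vascularis, a vascular epithelium on the outer wall that generates the electrical potential of the endolymph. The stria is not part of the organ of Corti, but it lies close to it in the cochlear duct. MITF, a basic helix-loop-helix leucine zipper factor, is the main transcription factor of the lineage, and it binds an E-box variant known as the M-box in front of several pigment genes.

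The start region of Dct is shown in full and those of Tyr and Tyrp1 as the short stretch around the same letters, because these 3 genes form 1 enzyme family whose signals are compared below. The window of 300 bases lies at chr14:118052197-118052496 on the minus strand of the assembly GRCm38.p6, as given by RefSeq, and is written 5′ to 3′ with every CATGTG, on either strand, in capitals.
Dct: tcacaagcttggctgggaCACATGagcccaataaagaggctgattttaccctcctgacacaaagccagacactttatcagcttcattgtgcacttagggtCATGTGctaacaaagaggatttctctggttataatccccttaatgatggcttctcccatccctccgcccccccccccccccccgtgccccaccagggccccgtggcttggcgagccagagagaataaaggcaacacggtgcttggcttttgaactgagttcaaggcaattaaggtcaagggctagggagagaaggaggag

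The next 3 stretches of 25 bases, from the windows chr14:118052197-118052496 (minus strand), chr7:87493463-87493762 (minus strand) and chr4:80833963-80834262 (plus strand), carry TCATGTGCT in capitals.
Dct site: acttagggTCATGTGCTaacaaaga
Tyr site: aaagttagTCATGTGCTttgcagaa
Tyrp1 site: ggagggagTCATGTGCTgcctagta

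The first base of these letters lies 151 bases upstream of the annotated start of Dct, 22 upstream of Tyr and 47 upstream of Tyrp1. Both strands were searched for TCATGTGCT, for CATGTG, which lies inside it, and for CACGTG. Of the 7 members with a window (Dct, Tyr, Tyrp1, Oca2, Gpnmb, Mitf and Kit, 10 windows in all), 3 held TCATGTGCT, which 0.408% of all 32851 windows of this length hold. CATGTG was in 4 of the 7, Oca2 being the fourth, against 14.2% of all windows. CACGTG was in 0 of the 7, against 7.15% of all windows. Pmel, Mlana and Slc45a2 were not searched here. A match is a description of these letters only.

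Dct was the member with the large difference. Its signals, given as log2 values like all those that follow, were 6.69, 6.90 and 6.32 in Pjvk-/- arrays, against 8.34, 8.33 and 8.83 in Pjvk+/+ arrays. Every knockout array lay below every wild-type array, and 1.43 log2 units separated the highest knockout value from the lowest wild-type value. Taken out of the log scale, the signals were 103.3, 119.4 and 79.9 in Pjvk-/- mice and 324.0, 321.8 and 455.1 in Pjvk+/+ mice, so that the knockout kept 27.5% of the wild-type signal. Dct fell by 1.86 on the log2 scale (standard error 0.17, 95% interval -2.25 to -1.48), the lowest difference among all 19938 genes, the next lowest being -1.08. The adjusted p by which Dct was chosen was 0.0115 (limma, Benjamini-Hochberg over all genes). It was the 1 member of 10 called at an adjusted p under 0.05, where 0.0351% of all genes were called lower and 0 genes were called higher. At an unadjusted p under 0.05, 1327 genes were lower (6.66%) and 1144 higher (5.74%). Leaving out the array of Pjvk-/- replicate 1 ended the call (adjusted p = 0.0655 by limma), as did leaving out Pjvk+/+ replicate 1 (0.0798) or Pjvk+/+ replicate 2 (0.0538). The call was also lost with the replicate number as a block (0.137) and with the level of Y-linked genes as a covariate (0.910). The Y-linked level did not overlap between the genotypes, so that fit separates it poorly from genotype. In bulk tissue, fewer cells of a type and less RNA per cell cannot be told apart.

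**Figure D1:**
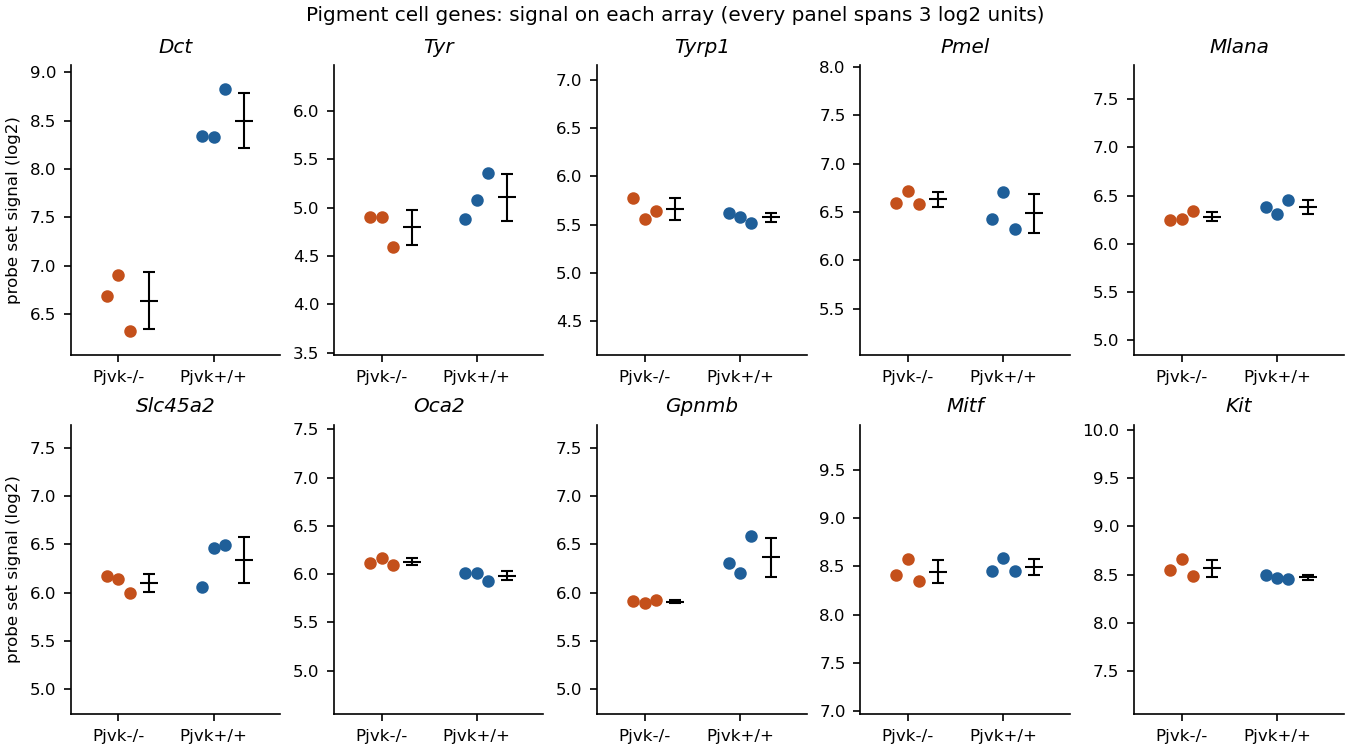
Probe set signal (log2) of each of the 10 pigment cell genes on each array, knockout (Pjvk-/-, left) and wild-type (Pjvk+/+, right), with the mean and SD of 3 arrays beside the points. Every panel spans the same number of log2 units around its own values. The groups of Dct lie 1.43 log2 units apart, whereas those of the other genes overlap or lie at most 0.28 apart.

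The readings of the other enzymes of the Dct family overlapped between the genotypes. Tyr read 4.90, 4.90 and 4.59 in Pjvk-/- mice, against 4.88, 5.08 and 5.36 in Pjvk+/+ mice. Its difference was -0.31 (standard error 0.13), and it ran from -0.42 to -0.18 with 1 array left out at a time. Tyrp1 read 5.78, 5.56 and 5.64 in Pjvk-/- mice, against 5.62, 5.58 and 5.52 in Pjvk+/+ mice. The Tyrp1 difference was 0.09 (standard error 0.07, 95% interval -0.07 to 0.25). Both probe sets were dim, as described below, so these readings set no limit on a change of either transcript, and the difference from Dct was not tested.

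Pmel, Mlana and Slc45a2, genes of the melanosome, lay on both sides of 0 with overlapping groups. Pmel, whose product forms the fibrils on which melanin is laid down, read 6.59, 6.72 and 6.58 in Pjvk-/- mice, against 6.43, 6.71 and 6.32 in Pjvk+/+ mice, a difference of 0.14 (standard error 0.10). Mlana, a small membrane protein of early melanosomes that helps PMEL mature, read 6.25, 6.26 and 6.34 in Pjvk-/- mice, against 6.38, 6.31 and 6.45 in Pjvk+/+ mice, a difference of -0.10 (standard error 0.06). The groups of both genes overlapped. Slc45a2, a transporter of the melanosome membrane, read 6.17, 6.14 and 5.99 in Pjvk-/- mice, against 6.06, 6.46 and 6.49 in Pjvk+/+ mice. Its difference of -0.24 (standard error 0.11) came with overlapping groups, since wild-type replicate 1 lay below 2 knockout arrays. Without that array the Slc45a2 difference was -0.38, and over all single arrays left out it ran to -0.16.

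Oca2 and Gpnmb had groups that did not overlap, in opposite directions. Oca2, a melanosomal membrane protein whose loss gives the pink-eyed dilute coat of mice, read 6.12, 6.17 and 6.10 in Pjvk-/- mice, against 6.01, 6.01 and 5.93 in Pjvk+/+ mice. All knockout values were the higher ones, by a mean of 0.15 (standard error 0.06). Gpnmb, a transmembrane glycoprotein related to PMEL that macrophages and osteoclasts make as well, read 5.91, 5.89 and 5.92 in Pjvk-/- mice, against 6.31, 6.20 and 6.59 in Pjvk+/+ mice. All knockout values were the lower ones, and they differed among themselves by less than the wild-type values did, with an SD of 0.02 in Pjvk-/- mice and 0.20 in Pjvk+/+ mice (n = 3 each). The knockout values of Gpnmb lay under 5.99, the guide to the floor of the array described below, and the wild-type values above it. The part of the floor in this small spread and in the difference was not tested. The Gpnmb difference was -0.46 (standard error 0.09), a signal 1.38-fold lower in Pjvk-/- mice, and -0.35 without wild-type replicate 3. With Dct, 2 of the 10 members had all knockout arrays below the wild-type, where 11.3% of all genes did. With Oca2, 1 of 10 had all knockout arrays above, where 6.59% of all genes did. These shares are given as background to a list chosen with the comparison known.

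The lineage regulators Mitf and Kit had overlapping groups. Mitf read 8.41, 8.58 and 8.35 in Pjvk-/- mice, against 8.45, 8.59 and 8.45 in Pjvk+/+ mice, with a difference of -0.05 (standard error 0.08, 95% interval -0.22 to 0.12). Kit, the receptor tyrosine kinase that melanoblasts need to migrate and survive, read 8.55, 8.66 and 8.49 in Pjvk-/- mice, against 8.50, 8.47 and 8.45 in Pjvk+/+ mice. Its difference was 0.09 (standard error 0.06), so that both regulators lay within 0.1 of 0. Mitf had a second, dimmer probe set, which read 3.83, 4.12 and 3.98 in Pjvk-/- mice, against 4.53, 3.76 and 4.62 in Pjvk+/+ mice. The values of that probe set overlapped as well, and its difference was -0.33 where the brighter one gave -0.05. Which Mitf transcripts each probe set reads was not analysed here.

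**Figure D2:**
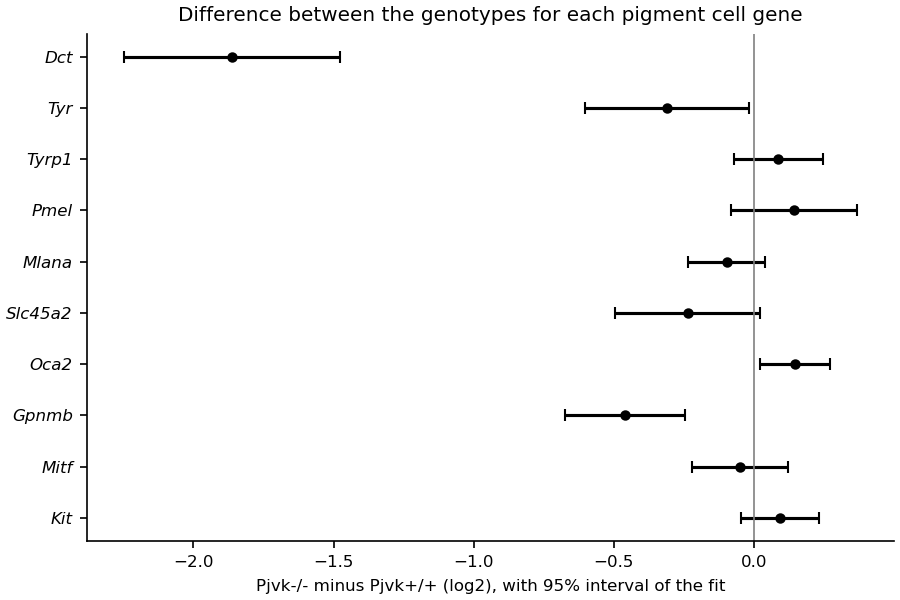
Difference between knockout and wild-type (log2) for each of the 10 pigment cell genes, with the unadjusted 95% interval from the limma fit. Dct stands at -1.86, Gpnmb at -0.46, and the other 8 genes lie between -0.31 and 0.15.

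As a group the 10 members had 6 lower and 4 higher in Pjvk-/- mice, with a median difference of -0.07. Without Dct 5 were lower and 4 higher, with a median of -0.05. Over all genes 53.8% were lower and 44.9% higher, with a median of -0.01. The mean level of the 9 genes other than Dct ran from 6.44 to 6.54 across the knockout arrays and from 6.52 to 6.62 across the wild-type arrays, so that the groups overlapped. Across the alternative fits no member changed direction: 4 (Tyrp1, Pmel, Oca2 and Kit) lay above 0 and 6 below 0 in every setting in which they were tested. These fits reuse the same arrays. The filters by level, the intensity trend and the replicate block leave the differences unchanged, so the same direction there adds nothing. Mitf came as near 0 as -0.002.

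How bright each member was limits what its difference can show. Signals of 1015 olfactory receptor genes, most of which are active in the nose and not expected in the cochlea, were taken as a guide to the floor of the array. Their median was 4.24 and their 95th percentile 5.99 on the log2 scale. Tyr, at a mean of 4.95 over the 6 arrays, was brighter than 74.5% of them, and Tyrp1, at 5.62, than 90.3%. These 2 members lay under the 95th percentile. Oca2, Gpnmb, Slc45a2, Mlana and Pmel were brighter than 95.6% to 98.5% of the receptor genes, just above the 95th percentile. Dct, Mitf and Kit were each brighter than 99.8% of them. Probe sets differ in affinity, so these shares rank no transcript amounts, and a dim reading can hide a change. Among the 5 defining melanocyte markers Dct, Tyr, Tyrp1, Pmel and Mlana, Tyr and Tyrp1 lay under that percentile, Pmel and Mlana little above it and Dct far above it. Mitf and Kit are also made by other cell types. A filter at the 25th percentile of level kept 8 of the 10 members and one at the median level kept 3 (Dct, Mitf and Kit).

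**Figure D3:**
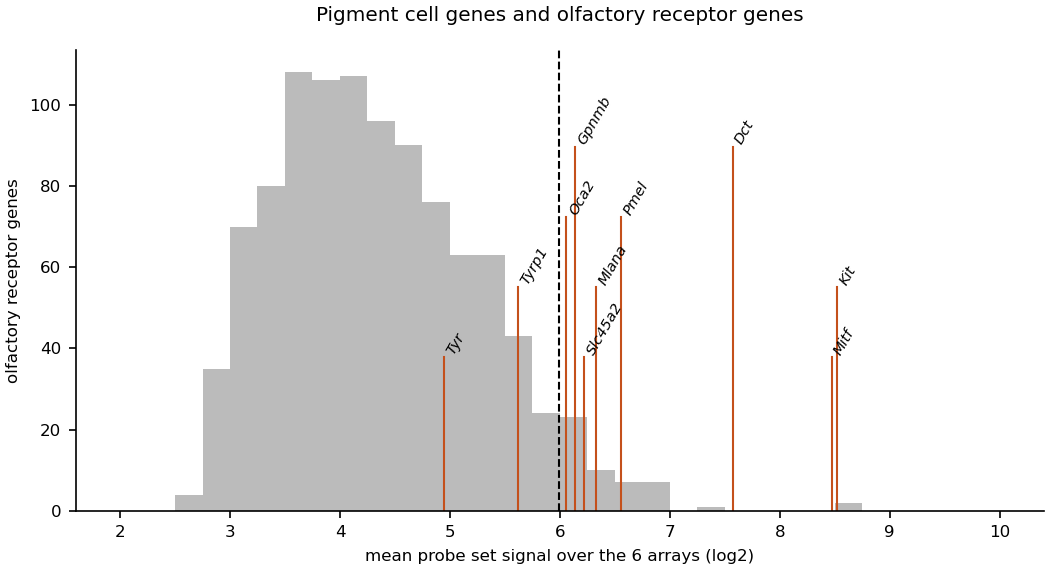
Number of olfactory receptor genes (grey bars) by mean signal over the 6 arrays (log2), with the mean signal of each pigment cell gene as an orange line whose height carries no value. The dashed line is the 95th percentile of the receptor genes, 5.99. Tyr and Tyrp1 lie below it, and Dct, Mitf and Kit stand well to the right.

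Pathway genes outside the 10 members did not pass the test. Further lists of other pigment cell genes, of melanosome biogenesis and trafficking and of melanocyte development and signalling held 63 measured genes, each counted once, with 43 lower and 20 higher, a median difference of -0.04 and 0 called by limma in either direction. Over all genes 53.8% were lower and 44.9% higher. At an unadjusted p under 0.05 there were 4 lower and 4 higher of the 63, near the 6.66% lower and 5.74% higher over all genes. Among the 12 other pigment cell genes (median -0.02, 7 lower and 5 higher), Tspan10, a tetraspanin, stood highest at 0.27 (standard error 0.08, adjusted p = 0.276). Cited1, a transcriptional coactivator, stood at 0.13 (standard error 0.06). Syngr1, a synaptic vesicle protein, stood at -0.12 (standard error 0.05), and Rab27a, the small GTPase that ties melanosomes to their motor, at -0.13 (standard error 0.08). Rab27a readings of the genotypes overlapped.

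The 34 genes of melanosome biogenesis and trafficking lay close to 0, between -0.16 and 0.15. Of these, 29 were lower and 5 higher, with a median of -0.04, where 53.8% of all genes were lower and 44.9% higher. Hps1, a subunit of the BLOC-3 complex mutated in Hermansky-Pudlak syndrome, was at 0.15 (standard error 0.06, adjusted p = 0.353). Myo5a, the myosin that carries melanosomes along actin, was at -0.15 (standard error 0.06, adjusted p = 0.357). Ap1g1, a clathrin adaptor subunit, was at -0.12 and Vps18, of the endosomal tethering complexes, at -0.13. None of the 34 passed the adjusted test. At an unadjusted p under 0.05 there were 1 gene lower and 1 higher, against 6.66% lower and 5.74% higher over all genes.

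Among the 23 genes of melanocyte development and signalling, 13 were higher and 10 lower, with a median of 0.02. Met, the receptor for hepatocyte growth factor, read 8.40, 8.38 and 8.40 in Pjvk-/- mice, against 8.76, 8.74 and 8.63 in Pjvk+/+ mice, without overlap. Its difference was -0.32 (standard error 0.06, adjusted p = 0.147), and limma called it when only genes at or above the median level were tested (adjusted p = 0.0351) and with an intensity trend and robust priors (adjusted p = 0.0174). Pax3, a paired-box factor that acts with SOX10 on Mitf, went the other way, at 5.87, 5.94 and 6.08 in Pjvk-/- mice, against 5.56, 5.81 and 5.65 in Pjvk+/+ mice. The Pax3 difference was 0.29 (standard error 0.08, adjusted p = 0.273), on a probe set whose mean of 5.82 lay under the 95th percentile of the receptor genes. Usf1, a factor that binds E-boxes, was at -0.18 (adjusted p = 0.336) and Hgf, the ligand of Met, at 0.14 (adjusted p = 0.395). Sox10 itself, which Schwann cells share with melanocytes and which was named after its value was seen, differed by 0.02 (standard error 0.05).

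Mif and Ddt, which can tautomerise D-dopachrome and belong to a protein family unrelated to Dct, were lower by less. Mif read 9.55, 9.64 and 9.43 in Pjvk-/- mice, against 9.71, 9.81 and 9.89 in Pjvk+/+ mice, without overlap, a difference of -0.26 (standard error 0.07, adjusted p = 0.273). Ddt was at -0.09 (standard error 0.09) with overlapping groups.

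**Figure D4:**
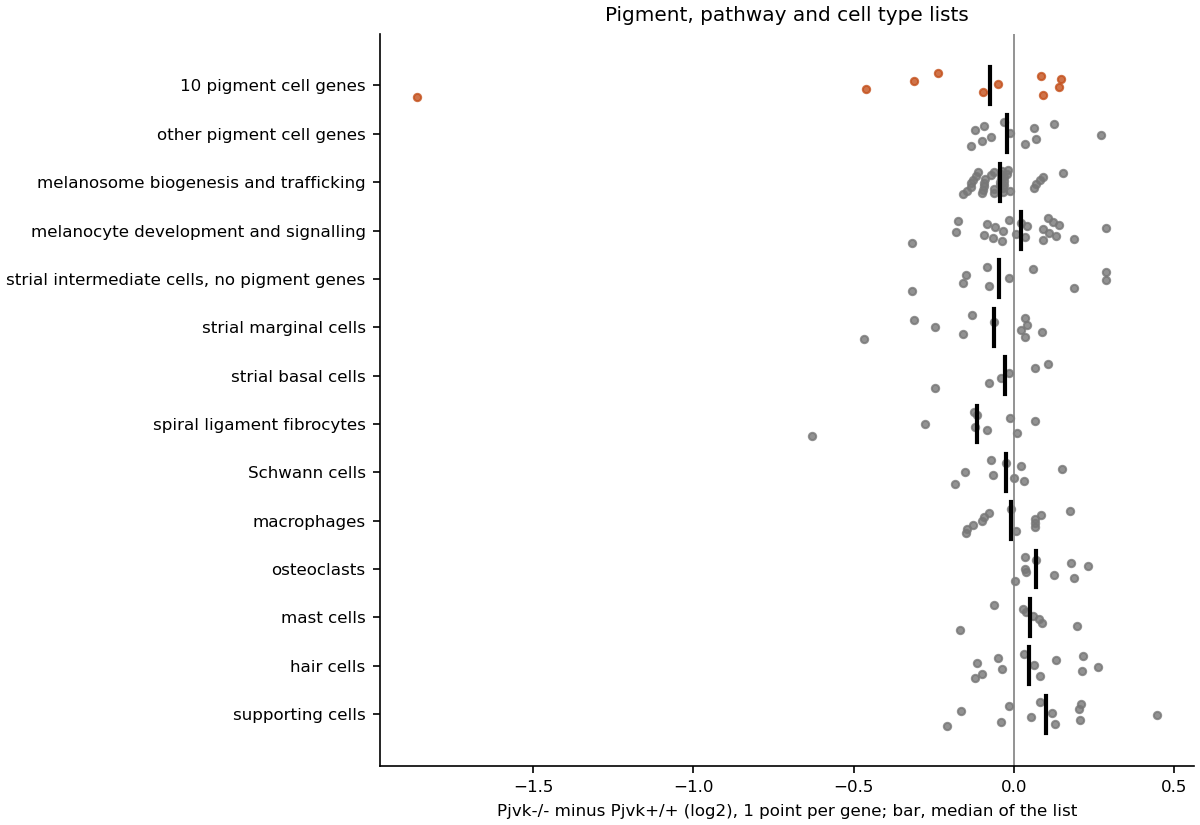
Difference between knockout and wild-type (log2) of every measured gene in the pigment, pathway and cell type lists, 1 point per gene, with a bar at the median of each list. Dct lies at -1.86, and every other gene in these lists lies between -0.63 and 0.45.

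Lists of genes typical of other cell types were read in the same fit. Some genes stand on several lists, and bulk levels do not show which cells were in the dissected tissue. Strial intermediate cells were represented by 10 genes that are not pigment genes, 6 lower and 4 higher, with a median of -0.05 and a mean level from 8.56 to 8.64 in Pjvk-/- mice and from 8.57 to 8.62 in Pjvk+/+ mice. Kcnj10, the potassium channel subunit through which intermediate cells set the endolymph potential, differed by 0.06 (standard error 0.06) and was named after its value was seen. Kcnj13, another inward rectifier, read 8.22, 8.09 and 8.22 in Pjvk-/- mice, against 7.93, 7.81 and 7.93 in Pjvk+/+ mice, so that every knockout array was higher while Dct was lower. Its difference was 0.29 (standard error 0.06, adjusted p = 0.200). Bace2, a protease that cuts PMEL in pigment cells, was at -0.16 (standard error 0.06, adjusted p = 0.344), and Met and Pax3, given above, are on this list too. By limma 0 of these 10 genes were called, with 2 lower and 2 higher at an unadjusted p under 0.05. Over all genes 6.66% were lower and 5.74% higher at that threshold.

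Marginal cells, which line the stria on the side of the endolymph, had 11 measured genes, 6 lower and 5 higher, with a median of -0.06. Their mean level ran from 7.94 to 7.99 in Pjvk-/- mice and from 8.02 to 8.14 in Pjvk+/+ mice, without overlap. Esrrb, a nuclear receptor that marginal cells need, read 6.43, 6.16 and 6.18 in Pjvk-/- mice, against 6.63, 6.65 and 6.89 in Pjvk+/+ mice, a difference of -0.47 (standard error 0.10, adjusted p = 0.177). Kcne1 and Kcnq1, the subunits of their apical potassium channel, were at -0.31 and -0.25 (adjusted p = 0.295 and 0.342). Dach1, a transcriptional regulator, was at -0.16 (adjusted p = 0.317). These 4 of the 11 genes had all knockout arrays below the wild-type, where 11.3% of all genes did, and 0 of 11 were called. Among the 5 higher genes, named after their values were seen, Atp13a5 stood highest at 0.09, and Bsnd was at 0.04. Kcne1, at a mean of 5.44, lay under the 95th percentile of the receptor genes. Whether strial tissue was carried along in the dissection, and its part in the Dct difference, was not tested.

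Lists of other cells of the outer wall and of nerve had medians between -0.11 and -0.02. Basal cell genes had a median of -0.03 over 6 genes, with Slc2a1, a glucose transporter, at -0.25, Sox8 at 0.11, Nrp2 at -0.08 and Cldn11, their tight junction protein, at 0.07. Spiral ligament genes had a median of -0.11 over 9 genes, 7 of them lower, where 53.8% of all genes were lower. Slc4a11 was at -0.63 (standard error 0.30), Slc26a4 at -0.28, Pou3f4 at -0.12 and Coch at -0.11. The mean level of the 9 genes ran from 8.79 to 9.07 in Pjvk-/- mice and from 9.05 to 9.12 in Pjvk+/+ mice. Schwann cell genes, from the same neural crest origin as melanocytes, had a median of -0.02 over 9 genes, with S100b at -0.18, Egr2 at -0.15, Mag at 0.15 and Erbb3 at -0.06.

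Cells that share Gpnmb, Mitf or Kit with melanocytes showed no called gene either. Macrophage genes had a median of -0.01 over 13 genes, 7 lower and 6 higher, with C1qc at -0.15, C1qa at -0.13, Cx3cr1 at 0.18 and Cd14 at -0.15. All 9 osteoclast genes were higher in Pjvk-/- mice, where 44.9% of all genes were higher, and their median was 0.07. Oscar was at 0.23, Ocstamp at 0.18, Dcstamp at 0.19 and Itgb3 at 0.13. Acp5 and Ctsk, named after their values were seen, were at 0.003 and 0.04. Cd14 and Dcstamp lay under the 95th percentile of the receptor genes, as did Aif1 of the macrophage list and Calcr, Mmp9 and Atp6v0d2 of the osteoclast list. Mast cell genes were dim, with mean levels from 4.86 to 4.88 in Pjvk-/- mice and from 4.79 to 4.93 in Pjvk+/+ mice, a median of 0.05, Tpsab1 at 0.20, Hdc at -0.17, Tpsb2 at 0.09 and Mcpt4 at 0.08. The mean level of the macrophage genes ran from 7.01 to 7.15 in Pjvk-/- mice and from 7.07 to 7.13 in Pjvk+/+ mice. The part of macrophages in the lower Gpnmb signal was not tested.

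Markers of the organ of Corti each had a mean over the 6 arrays above 5.99, the guide to the floor. Chrna9 read 5.93 in wild-type replicate 1 and 5.68 in wild-type replicate 3, under that guide. Tecta, of the supporting cell list, read 5.72 in wild-type replicate 1. Hair cell genes had a median of 0.05 over 12 genes, 7 higher and 5 lower, with Tmc1 at 0.22, Ocm at 0.21, Chrna9 at 0.26 and Pou4f3 at 0.13. Among the 5 lower ones, named after their values were seen, were Slc26a5 at -0.12, Chrna10 at -0.11 and Cdh23 at -0.10. Supporting cell genes had a median of 0.10 over 12 genes, 8 higher and 4 lower, with Tectb at 0.45 (adjusted p = 0.0923, called in 3 of the other fits), Otog at 0.21, Prox1 at -0.21 and S100a1 at -0.16. With all arrays and genes, limma called 0 genes of these 2 lists, where at an unadjusted p under 0.05 there were 2 hair cell genes higher and 0 lower, and 3 supporting cell genes higher and 2 lower, against 5.74% higher and 6.66% lower over all genes. The targeted gene Pjvk read 4.42, 4.36 and 4.21 in Pjvk-/- mice and 4.75, 5.06 and 4.96 in Pjvk+/+ mice, a dim signal with no overlap. Its difference was -0.59 (standard error 0.09) and was not called (adjusted p = 0.105 by limma). All its readings lay under the 5.99 guide to the floor. Y-linked genes (Kdm5d at -0.40, Uty at -0.34 and Eif2s3y at -0.33) had mean levels from 7.39 to 7.58 in Pjvk-/- mice and from 7.65 to 8.05 in Pjvk+/+ mice. These levels did not overlap between the genotypes, so a fit with them as a covariate separates them poorly from genotype. In that fit the Dct difference was -2.08, the adjusted p by limma was 0.910 and 0 genes were called. The part of Y-linked expression in the Dct difference was not tested.

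Measured genes beside Dct on chromosome 14 had overlapping groups. Of the 10 genes within 5 places of Dct in gene order, 2 were measured. Tgds, a predicted sugar nucleotide dehydratase, read 6.76, 6.75 and 6.59 in Pjvk-/- mice, against 6.80, 6.68 and 6.73 in Pjvk+/+ mice (difference -0.04, standard error 0.07). Gpr180, a membrane protein, read 7.86, 7.59 and 7.52 in Pjvk-/- mice, against 7.67, 7.76 and 7.75 in Pjvk+/+ mice (difference -0.07, standard error 0.09). Both lie on the same side of Dct. The nearest measured gene on the other side, the proteoglycan gene Gpc6, is 6 places away, was named after its value was seen and differed by 0.15 (standard error 0.08).

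Dct also varied more within each genotype than most genes. Its SD was 0.29 in both the knockout and the wild-type (n = 3 each), against a median of 0.085 over all genes, and 117 genes had a larger pooled SD. Replicate 3 had the lowest Dct value among the knockout arrays, and replicate 3 had the highest among the wild-type arrays. Tyr, on its dim probe set, showed the same arrangement, with the deviations from the genotype mean at -0.21 in knockout replicate 3 and 0.25 in wild-type replicate 3, where those of Dct were -0.32 and 0.33. Slc45a2 showed it too, at -0.11 and 0.15. The other members did not. Pmel, Oca2 and Kit were lowest in replicate 3 of both genotypes, and Mlana was highest in replicate 3 of both. Tyrp1 and Mitf were not highest in wild-type replicate 3. The share of all genes with the arrangement of Dct was not counted. The replicate numbers are names only, and these 2 arrays belong to different groups. Gpnmb was highest in wild-type replicate 3 too, but its knockout values hardly varied.

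Genes outside the list were compared with Dct by their profile over the 6 arrays. Likeness was the root mean square distance between profiles set to mean 0 and SD 1, among 260 genes outside the list that were at or above the median level and varied by at least 0.5 log2 units. The 5 nearest were Gjd2, the gap junction gene of neurons, at 0.16, Dapl1 at 0.23, the interferon-induced Oasl2 at 0.23, the muscle cytochrome oxidase gene Cox8b at 0.24 and the smooth muscle actin gene Acta2 at 0.25. Each had all knockout arrays below the wild-type, which follows from a profile so like that of Dct. The members were ranked separately, among all other genes of any level and range, so their places cannot be set against the order of those 5. From the most alike, Gpnmb came at place 322, Tyr at 1510, Slc45a2 at 2656, Mlana at 2829 and Mitf at 6941. The other 4 members were less alike, Pmel at place 16382, Kit at 16583, Tyrp1 at 16924 and Oca2 at 19667.

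With the genotype means removed, only the spread within genotypes counted. Of the same 260 genes, the 5 nearest were the haem oxygenase gene Hmox1 at 0.23, Atp5k of the ATP synthase at 0.27, the ion transporter gene Slc4a11 at 0.35, Dapl1 at 0.35 and Anxa9 at 0.40. Of the first set, 1 gene (Dapl1) was kept. Tyr then came at place 316 of all other genes, where Slc4a11 came at 156. It was the most alike of the members, and Tyr had a distance of 0.44. Slc4a11 deviated from its genotype mean by -0.65 in knockout replicate 3 and by 0.40 in wild-type replicate 3, the same arrays at which Dct was lowest and highest. Hmox1 read 7.35, 7.52 and 7.23 in Pjvk-/- mice, against 7.40, 7.43 and 7.73 in Pjvk+/+ mice. These likenesses rest on 6 arrays and carry no test.

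**Figure D5:**
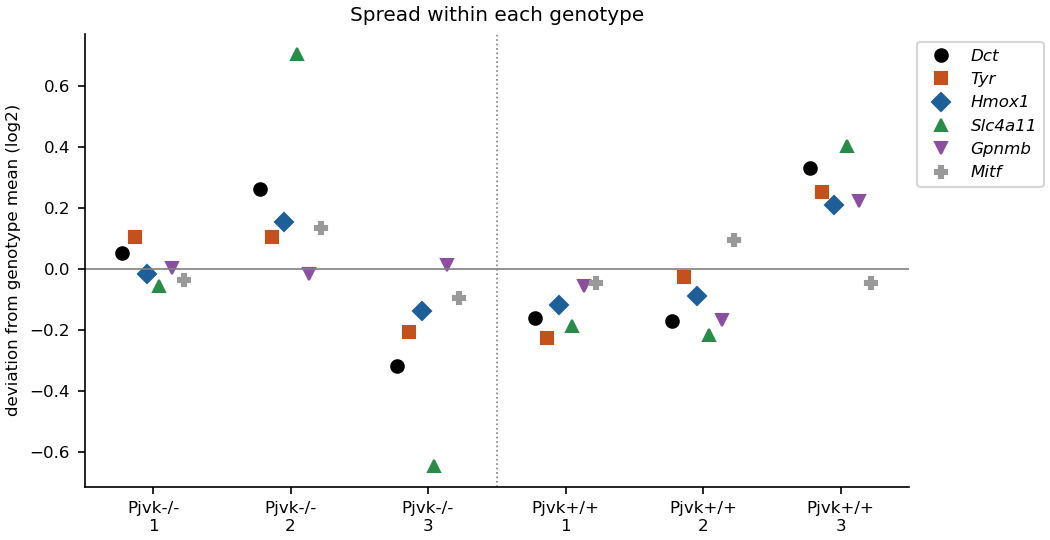
Deviation from the genotype mean (log2) on each of the 3 knockout and 3 wild-type arrays for Dct, Tyr, Gpnmb and Mitf and for 2 genes with a like spread, Hmox1 and Slc4a11. Dct, Tyr, Hmox1 and Slc4a11 are lowest in knockout replicate 3 and highest in wild-type replicate 3 within their genotypes, whereas Mitf is lowest in knockout replicate 3 but not highest in wild-type replicate 3.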

How the data were processed

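The authors deposited 1 table of log2 probe set signals for 35557 probe sets on 6 arrays. Per the submitters' processing notes the software was Affymetrix Expression Console, and per the labels' protocols 100 ng of total RNA was used per array. How background, summarization and normalization were handled: not given in the sources used here. Array medians lay between 6.66 and 6.69, so the values were used as deposited. Probe sets with 1 platform symbol (21789, of which 21698 were updated through their gene identifier to GRCm38.p6 symbols) were named, the brightest probe set of each of 19938 genes was kept, and 15 probe sets that list Pmel among several symbols were left out.

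Knockout was compared with wild-type by limma 3.58.1 in R 4.3.3 (lmFit, eBayes) over all genes. P-values were adjusted by Benjamini-Hochberg and called under 0.05, and they measure only the spread between these samples. The step was tested on simulated data. The number of arrays limits the precision. Start regions come from RefSeq. The members, lists and alternatives were chosen with earlier results of these data known. Named were the members, up to 4 genes per list by smallest unadjusted p and measured neighbours of Dct within 5 places. Of the 260 genes compared with Dct, the 5 most like it by each of 2 measures were named. Of the 14 alternatives, 6 left out 1 array.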

Additional observations from a re-analysis of the deposited data

How the results depend on the processing

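Dct was lower in the knockout in all 15 settings, between -2.08 and -1.70 on the log2 scale. Its call was lost in 5. These were a fit with Y-linked expression added (-2.08, adjusted p = 0.910), the replicate block (-1.86, adjusted p = 0.137) and the 3 single arrays named in the report, with -2.00 to -1.70 over all arrays left out. The Y-linked level did not overlap between the genotypes, so the fit with it separates it poorly from genotype. The number of called members was 0 instead of 1 in the same 5 settings, and ran from 0 to 1 with arrays left out. The number of called genes over the whole table was 7 and became 0 with that Y-linked covariate, 1 with the replicate block, 18 with centring on array medians, 20 above the 25th percentile of level, 45 above the median level, 112 with an intensity trend and robust priors, and 2 to 6 with arrays left out. The median of the members was -0.14 with the mean of all probe sets, as the dim Mitf probe set then counts as much as the bright one. Genotypes sharing a replicate number were not shown to be paired, since the deviations of same-numbered arrays correlated at 0.08, 0.02 and -0.01. The 2 measures of likeness to Dct shared 1 gene of 5. Tyr and Tyrp1 gave no value above the 25th percentile, nor any member but Dct, Mitf and Kit above the median.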
